A study of Rattus norvegicus with 15 samples.

Results

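The stomach and the colon are the non-villous ends of the series, and their mucosal cells were compared gene by gene. The comparison took the 3 gastric and the 3 colonic mucosal cell samples, 6 of the 15 samples of the series, as their titles name them. All other samples came from the duodenum, jejunum and ileum. The animals were untreated male Sprague Dawley rats whose age the labels do not give. Each of the 3 isolations per segment was a suspension freed from the inverted segment with pronase, a mixed bacterial protease, and sorted by size and density in a counterflow of medium (elutriation). The region of the stomach was not stated. The labels do not tie isolations to animals. Each p-value therefore reflects only how far these samples spread, which may be technical.

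RNA was labelled with Cy3 or Cy5 and hybridised to Agilent whole-genome rat arrays. Each level below is the log2 intensity of the sample's own dye minus the sample's 75th percentile, so a level of 0 is that percentile itself. A difference is stomach minus colon in log2 units, fitted with limma over all 15 samples, and is given ± its standard error. A gene was called higher or lower in the stomach at a Benjamini-Hochberg adjusted p under 0.05. Stomach samples 1 and 2 carried Cy3 and sample 3 Cy5, colon sample 1 carried Cy3 and samples 2 and 3 Cy5. The 3 stomach samples lay on 3 arrays scanned on 1 day, and the colon samples lay on arrays of 1 slide barcode scanned on 2 other days with another software version. Colon 1 and colon 2 were the 2 channels of 1 array. Segment and scan batch therefore cannot be told apart in this comparison. Levels of different genes come from different probes and were not compared with each other.

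The gastric mucosa is lined by mucous surface cells over glands that hold acid-secreting parietal cells, pepsinogen-secreting chief cells and endocrine cells. The colonic mucosa is a sheet of absorptive colonocytes and goblet cells over crypts, known for recovery of sodium and water, for burning short-chain fatty acids and for a thick mucus layer facing bacteria. In development, the factor Sox2 marks the foregut and Cdx2 the gut from the duodenum to the rectum.

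The labels were checked first with 3 genes for each tissue. Atp4a, the ion-moving subunit of the proton pump of parietal cells, stood at 6.04, 5.56 and 5.82 in stomach samples 1 to 3, against -2.44, -2.12 and -1.78 in colon samples 1 to 3. It was 253-fold higher in the stomach (difference 7.98 ± 0.47, adjusted p = 3.2e-09). Muc5ac, the gel-forming mucin of gastric surface cells, stood at 6.17, 5.92 and 5.81 in the stomach, against -1.53, -1.52 and -1.15 in the colon. No stomach sample of these genes came near a colon sample, and Muc5ac was 163-fold higher (7.35 ± 0.34, adjusted p = 2.77e-10). Both spots were saturated in stomach 3. Sox2 stood at -0.84, -1.36 and -1.29 in the stomach, against -4.32, -4.13 and -4.67 in the colon, where 1 of the 3 spots was well above background. The difference was 8.57-fold (3.10 ± 0.52, adjusted p = 0.00024). With another background correction (normexp) the Sox2 difference was 0.76 and was not called (adjusted p = 0.104).

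The 3 colonic markers ran the other way. Cdx2 stood at -1.03, -1.14 and -0.90 in the stomach, against 6.51, 6.40 and 6.63 in the colon. It was 185-fold lower in the stomach (-7.53 ± 0.28, adjusted p = 3.33e-11). Mptx1, a mucosal pentraxin first described in rat colon, stood at -2.08, -2.08 and -2.04 in the stomach, against 6.66, 6.79 and 7.09 in the colon. The stomach samples lay close together and far under the colon samples, a 422-fold difference (-8.72 ± 0.58, adjusted p = 1.47e-08). Car1, the cytosolic carbonic anhydrase of colonocytes, stood at 0.37, 0.07 and 0.03 in the stomach, against 6.88 and 7.08 in colon samples 1 and 2. The Car1 spot of colon 3 was dropped as non-uniform, so the 116-fold difference (-6.86 ± 0.57, adjusted p = 3.2e-07) rests on 2 colon samples. The other Car1 probe differed less, and the median of both probes gave -3.67 and no call (adjusted p = 0.348). The markers followed the labels in every sample measured.

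**Figure D1:**
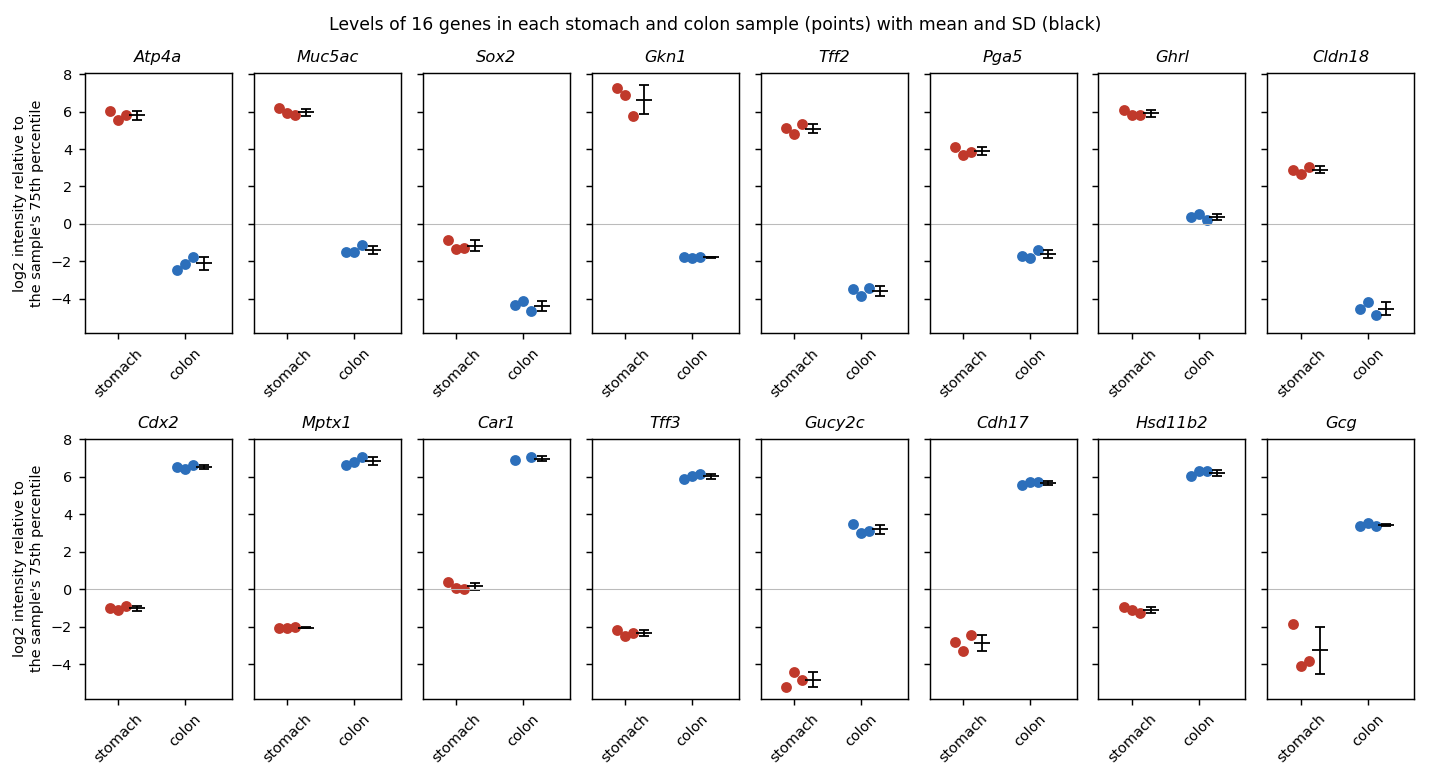
Levels of 16 genes in the stomach samples (red, left) and the colon samples (blue, right) as log2 intensity relative to the 75th percentile, with mean and SD in black. The upper row shows genes higher in the stomach and the lower row genes lower in the stomach. The groups do not overlap for these 16 genes, as for 70.2% of all genes, and Gcg varies most among the stomach samples.

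Of 33096 genes tested, 6980 (21.1%) were called higher in the stomach and 4738 (14.3%) lower, together 35.4%. Samples of the groups did not overlap for 70.2% of genes. Fitted differences of at least 4-fold were called for 3153 higher and 1225 lower genes. The direction went with brightness. When genes were split into 3 equal classes of 11032 by mean level, the dimmest class held 2967 higher and 260 lower calls, and the brightest class 1561 higher and 3498 lower calls. The median difference over all genes was 0.26, and the scaling moved it to -0.39 with normexp and to 0.02 with quantile normalisation. Of all calls 59.6% were higher in the stomach, against 34.2% with normexp, 42.8% with scaling to the sample median and 45.3% when each of the 6 samples had to be well above background. Small differences, above all of dim genes, are given below with that shift in mind. Of the genes called higher, 1021 were not well above background in any colon sample. Their fold is given as a lower bound, as is that of spots saturated in every sample of the brighter group. The background flag was not set alike, with a multiplier of 2.6 in the stomach files, 13 in the small bowel files and none given in the colon files, and it marked 95.4 to 97.1% of spots in stomach samples, against 74.5 to 90.6% in colon samples. When the stomach flags were left out of the filter, 50.7% of calls were higher, and Sox2, Clps, Kcnj16 and Emcn, among others, were no longer tested. These genes passed the filter only through the stomach, where they were high, so their p-values are not separate support for that direction. Normexp, which adds an offset before the log, gave a fold smaller by over 1.5 times, or a turned sign, for 90 of 166 called genes chosen for naming. Its difference also lay under the bound for 9 of the 10 of these genes with a bound, so the bounds are given for the processing used here only. Where saturation set the bound, it was the difference of group means without the dye term. Such a bound could exceed the fitted difference (8.44 against 8.32 for Gkn1) and is not a bound on it.

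**Figure D2:**
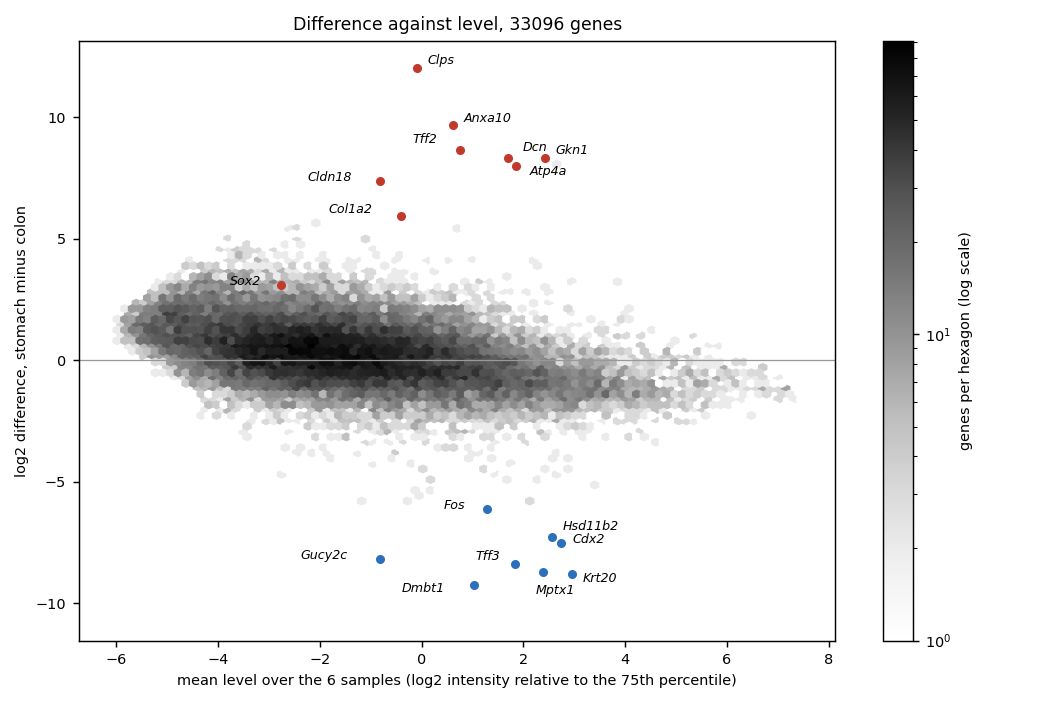
Log2 difference, stomach minus colon, of each tested gene against its mean level over the 6 samples. Grey hexagons hold all genes (log colour scale), with named genes in red (higher in the stomach) or blue (lower). The cloud tilts from above 0 among dim genes to below 0 among bright genes, and the named genes other than Sox2 lie outside it.

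The 12 largest differences in each direction, ranked with bounds in place of fitted values where a bound applied, were of secreted proteins, transporters, enzymes and other classes. Higher in the stomach were the secreted proteins Clps, Tff2, Gkn1, Tff1 and Gkn2, the annexin Anxa10, the pump subunit Atp4a, the iodide transporter Slc5a5, the protein disulfide isomerase Pdia2, the secretory cell factor Bhlha15, the steroid enzyme Hsd17b3 and the matrix proteoglycan Dcn. Lower in the stomach were the scavenger protein Dmbt1, the keratin Krt20, the cadherins Cdh17 and Cdhr5, the trefoil peptide Tff3, the pentraxin Mptx1, Sval1, the peptide guanylin (Guca2a) and its receptor Gucy2c, the metalloprotease Mep1b, the amine oxidase Aoc1 and Cdx2. Anxa10 stood at 5.55, 5.23 and 5.55 in the stomach, against -4.17, -4.41 and -4.07 in the colon, where 2 of 3 spots were well above background, an 807-fold difference (9.66 ± 0.42, adjusted p = 1.46e-10). Dmbt1 stood at -3.27, -4.01 and -3.43 in the stomach, against 5.60, 5.50 and 5.81 in the colon, a 603-fold difference (-9.24 ± 0.39, adjusted p = 8.53e-11). The 12 genes of each direction were taken from those whose groups did not overlap, so their separation is not a result. The median of the Dmbt1 probes gave a difference of -5.86.

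The stretches upstream of these genes, Cdx2 among them, were read for letters bound by CDX and GATA factors. Between stomach and colon every called gene moves with Cdx2 or against it, so that movement did not single these genes out. Of the 24 genes, 17 had an entry in RefSeq's promoter table (build GRCr8), and the 250 bases before each start were searched on both strands for TTTATNG, the letters bound by CDX factors, and AGATAA, those bound by GATA factors. The CDX letters lay upstream of 3 of 9 genes lower in the stomach (33.3%), 1 of 8 genes higher in the stomach (12.5%) and 8.28% of 12703 tested genes with an entry. The GATA letters lay upstream of 1 of 9 lower genes (11.1%), 3 of 8 higher genes (37.5%) and 7.90% of tested genes. The 3 upstream stretches of each of these classes follow, 5′ to 3′ on the gene's strand, with the CDX letters (first 3) or the GATA letters (last 3) in capitals.
Krt20, chr10:84890286-84890535, minus strand: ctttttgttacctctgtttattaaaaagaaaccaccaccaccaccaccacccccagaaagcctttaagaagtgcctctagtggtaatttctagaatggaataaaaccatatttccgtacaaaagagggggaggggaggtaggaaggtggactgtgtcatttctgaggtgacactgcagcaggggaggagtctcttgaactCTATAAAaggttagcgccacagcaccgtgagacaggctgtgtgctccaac
Tff3, chr20:9199334-9199583, minus strand: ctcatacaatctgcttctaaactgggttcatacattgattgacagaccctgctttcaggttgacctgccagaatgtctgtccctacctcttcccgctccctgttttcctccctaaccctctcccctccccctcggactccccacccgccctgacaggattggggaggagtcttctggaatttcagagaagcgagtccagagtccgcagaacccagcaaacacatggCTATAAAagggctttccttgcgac
Aoc1, chr4:79142876-79143125, plus strand: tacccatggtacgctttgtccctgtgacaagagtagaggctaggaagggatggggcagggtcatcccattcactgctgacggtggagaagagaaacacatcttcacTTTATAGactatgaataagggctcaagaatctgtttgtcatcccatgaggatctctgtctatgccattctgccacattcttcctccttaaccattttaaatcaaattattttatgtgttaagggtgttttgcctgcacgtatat
Gkn1, chr4:121352706-121352955, minus strand: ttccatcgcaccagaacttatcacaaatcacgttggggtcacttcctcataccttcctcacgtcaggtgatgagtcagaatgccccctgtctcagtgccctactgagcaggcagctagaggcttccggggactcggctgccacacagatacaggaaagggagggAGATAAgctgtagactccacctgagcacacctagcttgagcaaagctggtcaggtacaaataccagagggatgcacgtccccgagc
Gkn2, chr4:121375344-121375593, plus strand: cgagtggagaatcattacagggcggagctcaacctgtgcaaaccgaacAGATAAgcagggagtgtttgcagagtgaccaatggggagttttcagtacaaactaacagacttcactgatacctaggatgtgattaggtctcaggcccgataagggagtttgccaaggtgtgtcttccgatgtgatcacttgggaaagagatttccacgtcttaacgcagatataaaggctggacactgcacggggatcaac
Pdia2, chr10:15723376-15723625, minus strand: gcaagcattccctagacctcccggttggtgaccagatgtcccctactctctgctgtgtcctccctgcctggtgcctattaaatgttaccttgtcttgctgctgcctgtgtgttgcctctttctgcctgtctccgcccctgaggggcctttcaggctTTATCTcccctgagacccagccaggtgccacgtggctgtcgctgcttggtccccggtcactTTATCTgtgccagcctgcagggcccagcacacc
In Krt20 and Tff3 the capitals read CTATAAA and begin 50 and 24 bases before the start, so they overlap the letters of a TATA box. In Aoc1 they lie 144 bases before it. Over all tested genes, 382 of the 1052 with the CDX letters (36.3%) carried them in the form CTATAAA or its complement. Among genes lower in the stomach by 5 or more log2 units, 11 of 71 with an entry held the CDX letters (15.5%, 5 of them as CTATAAA), against 3 of 41 among genes higher by as much (7.32%). These are matches of letters, not binding sites.

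Features of the suspensions other than epithelial function moved with the comparison. Immediate early and heat shock genes, which respond within minutes to handling, were lower in the stomach in 15 of 20 and higher in none (median difference -3.72). Averaged over the list, the level was 0.05 to 0.25 in stomach samples, against 3.40 to 3.64 in colon samples. Fos stood at -1.60, -1.89 and -1.69 in the stomach, against 4.26, 3.77 and 4.91 in the colon, a 69.5-fold difference (-6.12 ± 0.41, adjusted p = 1.57e-08). The heat shock gene Hspa1a was 78.4-fold lower in the stomach and Egr2 was 91.0-fold lower. Of 19 genes of fibroblasts and matrix, 11 were called higher in the stomach and 2 lower (median 2.10), and their list average was -0.02 to 0.03 in stomach samples, against -1.81 to -1.75 in colon samples. The proteoglycan Dcn stood at 6.09, 5.66 and 5.82 in the stomach, against -2.47, -2.59 and -2.27 in the colon, and was 318-fold higher, with stomach 3 saturated. Col1a2 was 60.5-fold and Bgn 66.8-fold higher, each well above background in 1 of 3 colon samples. The Col1a2 difference of 5.92 was 4.38 with normexp, 3.62 with the median of its probes and 1.31 with the probe that was above background in all 6 samples, and the Bgn difference of 6.06 was 3.94 with normexp. Thbs4 and Ccn3 of the same list were 137-fold and 78.3-fold lower in the stomach. Endothelial genes were higher in 5 of 12 (median 1.31) and enteric neuron and glia genes in 5 of 11 (median 1.11), none lower. With normexp 8 fibroblast genes were higher and 5 lower. In these bulk samples more cells of a type and more RNA per cell cannot be told apart, and the part of handling and stromal cells in the results below was not tested.

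Parietal cells secrete hydrochloric acid through the H,K-ATPase, with potassium and chloride recycled across the apical membrane. Of 20 acid secretion genes tested, 11 were higher in the stomach, 1 was lower and 8 were not called (median difference 1.85). The pump's beta subunit, Atp4b, was saturated in every stomach sample, at 7.27, 6.88 and 5.78, against -0.29, -0.41 and -0.58 in the colon. By group means it was thus at least 135-fold higher (fitted difference 6.97 ± 0.38, adjusted p = 1.56e-09). The potassium channel subunit Kcnj16 stood at 2.15, 1.95 and 2.19 in the stomach, against -5.63, -5.50 and -6.45 in the colon, where no spot was well above background, and was at least 110-fold higher (adjusted p = 1.13e-08), a log2 bound of 6.78, against a difference of 4.16 with normexp. Cblif, the intrinsic factor that carries cobalamin and that rats make in chief cells, stood at 1.50, 1.00 and 1.37 in the stomach, against -4.73, -4.37 and -3.92 in the colon, where 2 of 3 spots were well above background, 48.6-fold higher (adjusted p = 3e-05). Cblif passed the background filter only through the stomach, so its p-value is not separate support for that direction. The Cblif difference of 5.60 was 3.11 with normexp. Kcne2, a subunit of the apical potassium channel, was 10.1-fold higher (adjusted p = 0.00069). The Kcne2 difference of 3.33 was 1.39 with normexp, still called higher. The mitochondrial creatine kinase Ckmt1 was the 1 lower gene, at 2.79, 2.70 and 3.00 in the stomach, against 5.97, 5.42 and 6.20 in the colon (8.58-fold). The water channel Aqp4 was not called (0.60 ± 0.59, adjusted p = 0.451). Slc26a9 had no named probe.

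Chief cells store digestive zymogens. Of 10 chief cell and gastric enzyme genes, 9 were higher in the stomach and none was lower (median difference 5.33). Pga5, a pepsinogen, stood at 4.12, 3.69 and 3.83 in the stomach, against -1.70, -1.80 and -1.38 in the colon, 45.5-fold higher (5.51 ± 0.38, adjusted p = 2.15e-08). Pgc, progastricsin, was saturated in every stomach sample and by group means at least 44.6-fold higher (fitted difference 5.35 ± 0.46). Cym, the milk-clotting chymosin of young mammals, stood at 4.28, 3.89 and 4.35 in the stomach, against 0.10, 0.19 and 0.06 in the colon, 17.1-fold higher. The groups did not overlap for these zymogens, as for 70.2% of all genes. The acidic chitinase Chia, saturated in stomach 3, was 39.6-fold higher. The colipase Clps, best known from the exocrine pancreas, passed the background filter only through the stomach and gave the largest difference of all named genes. It stood at 6.28, 5.74 and 5.81 in the stomach, against -5.62, -6.34 and -6.38 in the colon, where no spot was well above background, and was at least 1575-fold higher (adjusted p = 3.76e-10), a log2 bound of 10.62, against a difference of 8.24 with normexp. Bhlha15 (Mist1), a factor of zymogen-secreting cells, stood at 2.74, 2.45 and 2.85 in the stomach, against -5.88, -5.34 and -6.26 in the colon, where 1 of 3 spots was well above background, 384-fold higher (adjusted p = 1.87e-09). That fold rests in part on colon signals not well above background, and the Bhlha15 difference of 8.58 was 4.77 with normexp. Lipf, gastric lipase, differed less, at 0.44, 0.66 and 0.53 in the stomach, against -0.69, -0.83 and -0.61 in the colon (2.25-fold, adjusted p = 0.00412, not called with scaling to the sample median).

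Surface and neck mucous cells coat the stomach with mucin, trefoil peptides and gastrokines. Of 13 such genes, 10 were higher in the stomach and none was lower (median difference 6.23). The gastrokines Gkn1 and Gkn2 and the trefoil peptide Tff1 were saturated in all stomach samples. By group means they were at least 347-fold, 175-fold and 273-fold higher. The fitted differences, with the dye term, were 8.32 ± 0.39, 7.28 ± 0.46 and 8.03 ± 0.69. Tff2, the trefoil peptide of neck and antral gland cells, was not saturated and stood at 5.13, 4.82 and 5.33 in the stomach, against -3.49, -3.88 and -3.41 in the colon, where 2 of 3 spots were well above background, 398-fold higher (8.64 ± 0.41, adjusted p = 3.15e-10). The gland mucin Muc6 was not called, at -0.09, -0.49 and 0.11 in the stomach, against -1.05, -1.04 and -1.65 in the colon (1.07 ± 0.52, adjusted p = 0.122), although the groups did not overlap.

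The endocrine cells of the tissues differed by hormone. Of 11 gastric endocrine genes, 7 were higher in the stomach and none was lower (median 1.91). Ghrl, the hunger hormone ghrelin, stood at 6.10, 5.80 and 5.81 in the stomach, against 0.35, 0.51 and 0.20 in the colon, 45.3-fold higher (adjusted p = 3.69e-05), with stomach 3 saturated. Somatostatin (Sst) was 18.4-fold higher. Hdc, the enzyme that makes histamine, was 6.90-fold higher, and the granule protein Chga, saturated in stomach 3, 15.5-fold. Gast, the acid-stimulating hormone gastrin, was not called (1.12 ± 0.44, adjusted p = 0.0567), at 2.70, 2.74 and 2.74 in the stomach, against 1.72, 1.60 and 1.15 in the colon. It was called higher under 8 of 24 alternatives.

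Of 13 intestinal endocrine genes, 5 were lower in the stomach (38.5%) and 2 higher (15.4%), against 14.3% and 21.1% over all genes (median -0.35). Gcg, the glucagon precursor that L cells process to GLP-1, stood at -1.86, -4.13 and -3.84 in the stomach, against 3.40, 3.51 and 3.39 in the colon. Stomach 1 lay above the other stomach samples but far below the colon, and the difference was 106-fold (-6.73 ± 0.59, adjusted p = 3.77e-07), or -7.40 without stomach 1. Pyy, the second L cell hormone, stood at -1.76, -1.68 and -1.68 in the stomach, against 4.95, 4.80 and 5.17 in the colon, 94.9-fold lower (adjusted p = 6.93e-09). Secretin (Sct) was 6.08-fold lower. Gip, the hormone of proximal K cells, was 3.89-fold higher in the stomach (adjusted p = 0.0128), but not called with normexp or with the median of its probes. Tph1, which starts serotonin synthesis, was not called (-0.54 ± 0.34, adjusted p = 0.227). Insl5 had no named probe.

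Goblet cells secrete the mucus of the bowel. Of 12 goblet cell genes, 8 were lower in the stomach and none was higher (median difference -2.20). Tff3, the intestinal trefoil peptide, stood at -2.16, -2.52 and -2.34 in the stomach, against 5.91, 6.03 and 6.13 in the colon, 335-fold lower (-8.39 ± 0.40, adjusted p = 3.15e-10). The trefoil family thus split by tissue, Tff1 and Tff2 higher and Tff3 lower in the stomach. The transmembrane mucin Muc13 was 94.1-fold lower and the lectin Zg16, which binds bacteria, 46.9-fold lower. Muc2, the mucin that builds intestinal mucus, differed by less, at -1.56, -1.01 and -1.42 in the stomach, against 1.26, 0.63 and 0.79 in the colon (4.90-fold lower, adjusted p = 0.000125). Clca1 stood at 3.53, 3.05 and 3.46 in the stomach, against 5.48, 6.08 and 6.08 in the colon (5.55-fold lower). Agr2, a chaperone for mucins, saturated in stomach 3, stood at 6.68, 6.29 and 5.81 in the stomach, against 6.56, 6.87 and 6.78 in the colon and was not called (-0.44 ± 0.36, adjusted p = 0.357).

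Absorption of sodium in the distal bowel runs through apical exchangers and the epithelial sodium channel ENaC, which aldosterone raises through the mineralocorticoid receptor. Of 22 colonic ion transport genes, 12 were lower in the stomach and 1 was higher (median difference -1.37). Slc26a3, the chloride-bicarbonate exchanger of colonocytes, stood at -4.34, -4.39 and -4.82 in the stomach, against 2.67, 2.72 and 3.06 in the colon, 166-fold lower (-7.38 ± 0.47, adjusted p = 9e-09). Hsd11b2, which inactivates glucocorticoids and so keeps the mineralocorticoid receptor open to aldosterone, stood at -0.97, -1.12 and -1.26 in the stomach, against 6.05, 6.32 and 6.30 in the colon, 156-fold lower (adjusted p = 3.2e-09). The receptor itself, Nr3c2, stood at -0.31, -0.22 and -0.19 in the stomach, against 3.02, 2.77 and 2.86 in the colon, 8.47-fold lower (adjusted p = 1.64e-07). Receptor and enzyme thus moved the same way. The ENaC subunits did not move together. Scnn1a was 2.65-fold lower in the stomach (adjusted p = 0.00223, not called with the median of its probes), Scnn1b was not called (0.51 ± 0.33, adjusted p = 0.243) and Scnn1g was 4.26-fold higher (adjusted p = 0.00044), at -0.12, 0.39 and -0.03 in the stomach, against -1.95, -1.92 and -2.32 in the colon. The chloride channel Clcn2 was 43.8-fold lower. Atp12a, the colonic counterpart of the gastric proton pump, stood at -2.32, -2.12 and -2.32 in the stomach, against 0.43, 0.46 and 0.52 in the colon, 6.56-fold lower (adjusted p = 0.000115). The sodium-proton exchangers Slc9a2 (-1.26 ± 0.53, adjusted p = 0.0736) and Slc9a3 (-0.52 ± 0.33, adjusted p = 0.236) and the chloride channel Cftr (-0.57 ± 0.39, adjusted p = 0.269) were not called.

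Guanylin peptides act on the receptor guanylate cyclase C to raise cyclic GMP, which drives chloride and bicarbonate secretion in the bowel. All 4 guanylin system genes tested were lower in the stomach (median -5.01). Guca2a, guanylin, stood at -0.65, -0.40 and -0.74 in the stomach, against 7.83, 6.93 and 7.76 in the colon, 298-fold lower (-8.22 ± 0.46, adjusted p = 2.12e-09). The receptor Gucy2c stood at -5.22, -4.44 and -4.85 in the stomach, against 3.48, 2.99 and 3.10 in the colon, 289-fold lower (-8.17 ± 0.42, adjusted p = 6.95e-10). Guca2a and Gucy2c were both among the largest differences named above. Those genes were taken from genes whose groups did not overlap, so the separation of ligand and receptor is not a result. Guca2b, uroguanylin, was 3.61-fold lower (adjusted p = 0.00693).

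Carbonic anhydrases supply acid and bicarbonate in both tissues, and no common direction was seen. Of 13 tested, 3 were higher, 2 lower and 8 not called (median 0.35, which changed sign with normexp). These shares (23.1% and 15.4%) lie near the 21.1% and 14.3% over all genes. Besides Car1, the membrane-bound Car4 was 9.22-fold lower in the stomach (adjusted p = 0.000134). Car2, the isoform of parietal cells and colonocytes alike, stood at 5.87, 5.46 and 5.75 in the stomach, against 6.17, 6.07 and 6.17 in the colon, and was not called (-0.55 ± 0.62, adjusted p = 0.517). It lay between -1.72 and 2.91 in the 9 small bowel samples. Car14 was 5.52-fold higher in the stomach, but its difference of 2.47 was 0.79 with normexp, still called higher. Car14 and Car3 passed the background filter only through the stomach. The higher calls of Car3 and Car15 turned to differences of -0.46 and -0.05 with normexp. Of 11 aquaporins, 3 were lower in the stomach and 1 higher, with a median of 0.53 that changed sign with normexp. Aqp8, the apical water channel of rat colonocytes, stood at -3.46, -4.10 and -3.63 in the stomach, against -0.58, 0.11 and 0.55 in the colon, 13.1-fold lower (adjusted p = 1.03e-05), and the basolateral Aqp3 was 13.8-fold lower. Aqp12a was 6.47-fold higher.

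Claudins set the leak of the paracellular path. Of 26 claudin and tight junction genes, 13 were lower in the stomach and 3 higher (median -0.88). Cldn18, whose stomach isoform seals the gastric mucosa against acid, stood at 2.90, 2.69 and 3.06 in the stomach, against -4.55, -4.19 and -4.85 in the colon, where 1 of 3 spots was well above background, 167-fold higher (7.38 ± 0.59, adjusted p = 1.19e-07). That size depended on the probe and the background, with 4.76 under normexp, 3.71 for the median of its probes and 2.09 for the probe above background in all 6 samples, each called higher. Cldn7 stood at -1.49, -1.45 and -1.70 in the stomach, against 5.52, 5.23 and 5.36 in the colon, 123-fold lower (-6.95 ± 0.37, adjusted p = 1.1e-09). The barrier claudins Cldn4 and Cldn3 were 52.0-fold and 32.7-fold lower in the stomach. Cldn8, a sealing claudin of the distal colon, was 3.87-fold lower, and the pore-forming Cldn15 2.65-fold lower. Cldn2, which forms a cation pore, was 3.41-fold lower (adjusted p = 0.0413) but lost its call under 8 of 24 alternatives. Cldn22 (2.11 ± 0.33, adjusted p = 0.000134) and Cldn9 (1.25 ± 0.44, adjusted p = 0.0365) were also called higher in the stomach. Cldn9 lost its call under 8 of 24 alternatives. The claudins named here thus ran in both directions.

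Adhesion and microvillus genes of the intestinal epithelium were lower in 12 of 20 and higher in 2 (median -2.34). Cdh17, the cadherin of intestinal epithelium, stood at -2.85, -3.33 and -2.45 in the stomach, against 5.57, 5.75 and 5.72 in the colon, 374-fold lower (-8.55 ± 0.44, adjusted p = 6.95e-10). Krt20, a keratin of differentiated intestinal cells, stood at -1.49, -1.36 and -1.42 in the stomach, against 7.23, 7.27 and 7.52 in the colon, 451-fold lower (adjusted p = 9.42e-11). Vil1, which bundles actin in the brush border, was 54.2-fold lower, the protocadherin Cdhr5, which links microvillus tips, 251-fold and the lectin Lgals4 39.2-fold. Gpa33, an intestinal surface antigen, was not called (0.03 ± 0.49, adjusted p = 0.965). Tm4sf5 was 17.0-fold higher in the stomach. The higher call of Eps8 (25.4-fold) came from its brighter probe, and the other probe gave -0.38 when all 6 samples had to be above background. Without colon 1 the Eps8 difference was 3.48, against 4.67 with it.

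**Figure D3:**
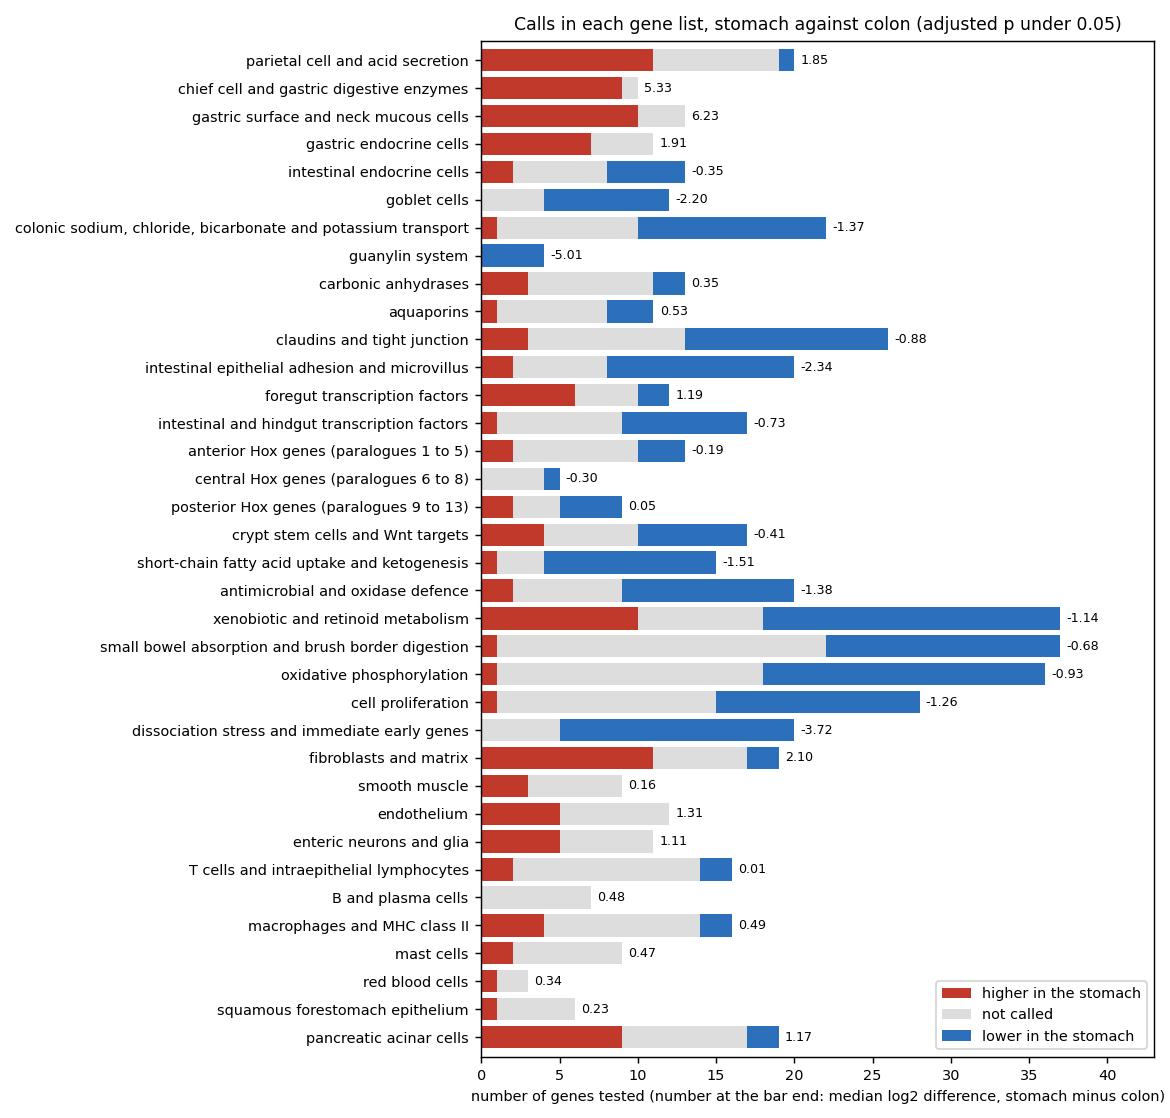
Number of genes higher in the stomach (red), not called (grey) and lower in the stomach (blue) in each of 36 gene lists, with the median log2 difference at the bar end. Over all 33096 genes 21.1% were higher and 14.3% lower, with a median of 0.26. The mucous, chief and parietal cell lists are mostly red, and the guanylin, stress and goblet cell lists mostly blue.

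Regional transcription factors followed the axis of the gut in part. Of 12 foregut factors, 6 were higher in the stomach (50%) and 2 lower (16.7%), against 21.1% and 14.3% over all genes (median 1.19). Besides Sox2, Gata4 stood at 1.86, 1.86 and 1.98 in the stomach, against -0.78, -0.64 and -1.41 in the colon, 7.17-fold higher (2.84 ± 0.34, adjusted p = 9.98e-06). The nuclear receptor Nr0b2 was 4.93-fold higher. Pdx1, the factor of antrum and duodenum, was 2.67-fold higher in the stomach (adjusted p = 0.00354) but not called with normexp, and Barx1, a factor of stomach mesenchyme in mouse, was not called (0.83 ± 0.46, adjusted p = 0.172). Of 17 intestinal and hindgut factors, 8 were lower and 1 was higher (median -0.73). Cdx1 stood at -5.65, -5.29 and -5.47 in the stomach, where 2 of 3 spots were well above background, against -0.69, -0.38 and 0.19 in the colon, 35.7-fold lower (-5.16 ± 0.48, adjusted p = 6.67e-07). Klf5, a factor of proliferating crypt cells, was 10.2-fold lower. Nkx2-3, known from gut mesenchyme, was 9.60-fold higher in the stomach. The nuclear receptors Hnf4a (0.03 ± 0.38, adjusted p = 0.952) and Hnf4g (-0.20 ± 0.42, adjusted p = 0.74) were not called.

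Hox genes specify position along the body, with the highest paralogue numbers at the tail. Of 9 posterior genes (paralogues 9 to 13) 4 were lower in the stomach and 2 higher (22.2%, against 21.1% over all genes). Their median of 0.05 changed sign under several alternatives. Hoxb13 stood at -4.72, -3.97 and -4.07 in the stomach, against 0.37, 1.07 and 1.22 in the colon, 32.8-fold lower (-5.04 ± 0.49, adjusted p = 1.06e-06). Hoxd13 stood at -4.36, -3.79 and -4.38 in the stomach, against -0.56, -0.45 and -0.92 in the colon, 12-fold lower (adjusted p = 6.37e-05). In the 9 small bowel samples Hoxb13 reached at most -3.69 and Hoxd13 at most -2.79, and the lowest colon sample exceeded every other sample of the series by 4.06 and 1.87. Hoxa11 was 6.23-fold lower in the stomach. The higher calls of Hoxd10 and Hoxc11, each well above background in 1 of 3 colon samples, turned to -0.27 and -0.09 with normexp. Among 13 anterior genes (paralogues 1 to 5) 3 were lower (23.1%) and 2 higher (15.4%) in the stomach (median -0.19). Of 5 central genes 1 was lower (20%, median -0.30). The shares over all genes were 14.3% lower and 21.1% higher. Hoxa4, an anterior gene, stood at -2.55, -2.58 and -2.05 in the stomach, against 1.10, 1.11 and 0.90 in the colon, 9.78-fold lower (-3.29 ± 0.50, adjusted p = 0.000115). Hoxb6 (-0.30 ± 0.48, adjusted p = 0.654) and Hoxb9 (0.09 ± 0.52, adjusted p = 0.91) were not called. Hoxa13 had no named probe.

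**Figure D4:**
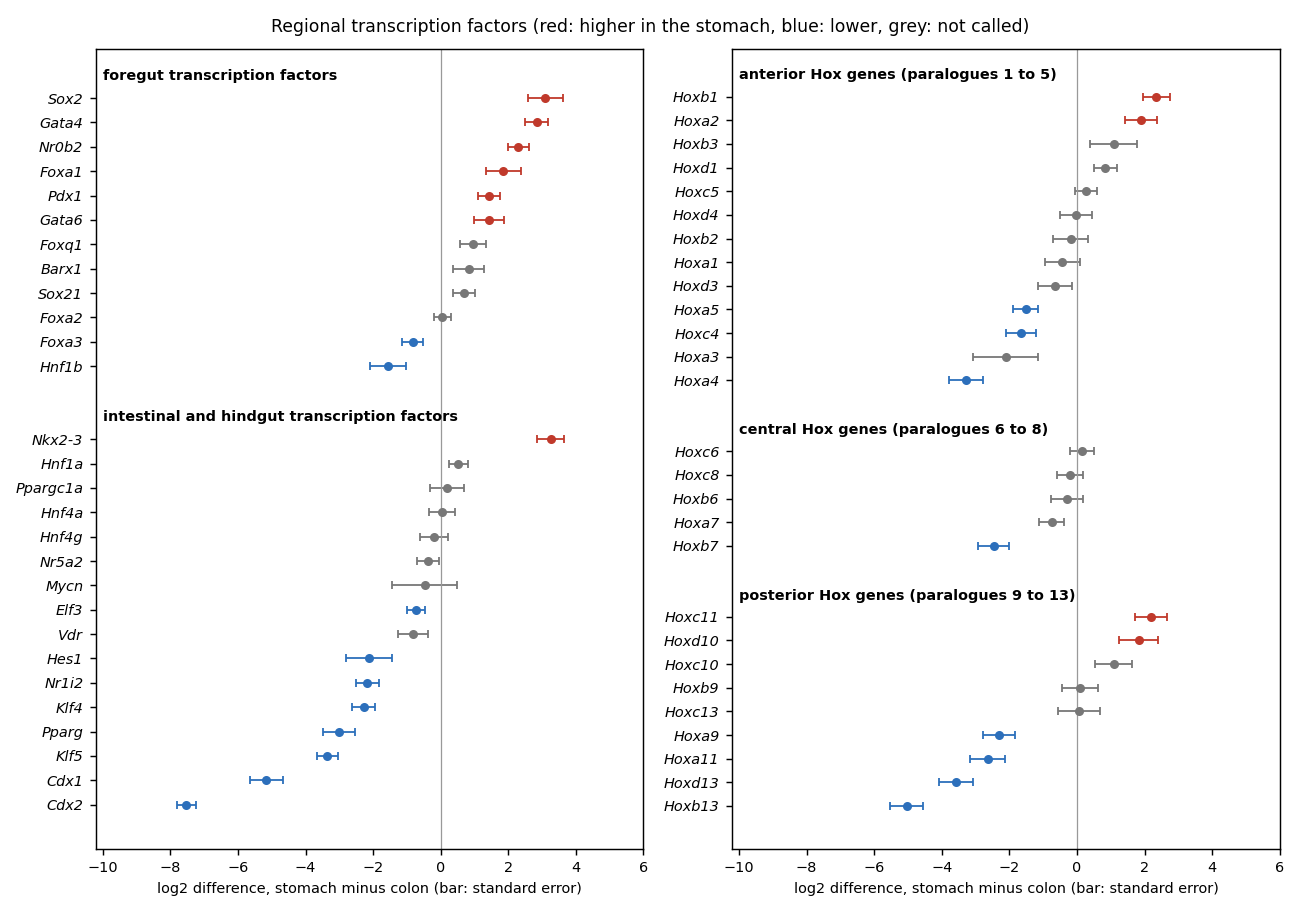
Log2 difference, stomach minus colon, with its standard error for regional transcription factors (left, 1 of the listed factors not shown) and Hox genes (right), ordered within each list. Red points were called higher in the stomach, blue points lower, and grey points were not called. Cdx2 and Cdx1 lie farthest to the left among the factors and Hoxb13 and Hoxd13 among the Hox genes.

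Of 17 crypt stem cell and Wnt target genes, 7 were lower (41.2%) and 4 higher (23.5%) in the stomach (median -0.41). The shares over all genes were 14.3% lower and 21.1% higher, so the higher share was near that of all genes. The higher calls rested on the choice of samples and scaling, with 0 without stomach 2 or with scaling to the sample median, and 1 without colon 1 or with quantile normalisation, while 6 or 7 were lower under these settings. Ascl2, a factor of intestinal stem cells, stood at 0.15, 0.21 and 0.10 in the stomach, against 2.52, 2.48 and 2.32 in the colon, 4.69-fold lower (adjusted p = 0.00147). Lgr5, a receptor that marks stem cells of antral glands and of intestinal crypts, was 2.08-fold higher in the stomach (adjusted p = 0.0283), a call lost under 6 of 24 alternatives. Olfm4 and Axin2 were not called (adjusted p = 0.371 and 0.57). The higher call of Sp5 turned to -0.40 with normexp. Cell proliferation genes were lower in 13 of 28 and higher in 1 (median -1.26). The mitotic kinase Aurkb stood at -2.61, -2.53 and -2.39 in the stomach, against 0.96, 0.61 and 1.05 in the colon, 11-fold lower (-3.46 ± 0.35, adjusted p = 1.69e-06). Without stomach 3 the lower count was 8, and with normexp it was 20. Mcm5, a replication licensing factor, was 2.73-fold higher in the stomach (adjusted p = 0.00277).

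Short-chain fatty acids from bacterial fermentation are the main fuel of colonocytes. Of 15 genes for their uptake, sensing and conversion to ketones, 11 were lower in the stomach and 1 higher (median -1.51). Ffar2, a receptor for short-chain fatty acids, stood at 0.17, 0.50 and 0.40 in the stomach, against 4.90, 4.90 and 5.09 in the colon, 23.7-fold lower (adjusted p = 3.51e-08). Its paralogue Ffar3 was 2.06-fold higher in the stomach (adjusted p = 0.0071, not called with scaling to the sample median). The monocarboxylate transporter Slc16a1 was 3.41-fold and the carnitine transferase Cpt1a 4.62-fold lower. Slc5a8 had no named probe. Of 36 oxidative phosphorylation genes, 18 were lower and 1 was higher (median -0.93), among them the ATP synthase subunit Atp5f1a (8.96-fold lower). With quantile normalisation 7 were lower and 6 higher (median -0.07), so this direction depended on the scaling.

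Defence genes were lower in the stomach in 11 of 20 and higher in 2 (median -1.38), Mptx1 and Dmbt1 first. The peroxidase Lpo stood at -3.75, -3.17 and -3.94 in the stomach, against 1.73, 2.04 and 2.89 in the colon, 54.4-fold lower (-5.77 ± 0.64, adjusted p = 4.72e-06). The oxidase Duox2 was 2.85-fold lower (adjusted p = 0.00477, not called with normexp), while Nox1, the oxidase of colon epithelium, was not called (1.00 ± 0.50, adjusted p = 0.132). Pigr, which carries IgA across the epithelium, was not called (-0.06 ± 0.56, adjusted p = 0.944), and its colon samples spread from 1.58 to 2.99. The flagellin receptor Tlr5 was 2.11-fold higher in the stomach (adjusted p = 0.00531). The higher call of Defb1 turned to -0.47 with normexp. Retnlb had no named probe.

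Xenobiotic and retinoid metabolism genes divided between the tissues, with 19 of 37 lower (51.4%) and 10 higher (27%) in the stomach (median -1.14). The shares over all genes were 14.3% lower and 21.1% higher. Alcohol dehydrogenases ran in opposite directions. Adh7, the class IV enzyme of stomach epithelium, stood at 2.96, 2.70 and 3.21 in the stomach, against -0.76, -0.71 and -0.77 in the colon, 12.5-fold higher (3.64 ± 0.48, adjusted p = 2.98e-05). Adh1c, the class I enzyme, stood at -1.58, -1.49 and -1.64 in the stomach, against 5.27, 5.38 and 5.67 in the colon, 136-fold lower (-7.09 ± 0.33, adjusted p = 2.65e-10). The sulfotransferase Sult1c3 was 155-fold and the glutathione transferase Gsta1 22.9-fold higher in the stomach. The cytochrome Cyp4f1 was 61.3-fold and the efflux pump Abcg2, well above background in 2 of 3 stomach samples, 43.4-fold lower. The array cannot be taken to separate close paralogues in these families, since cross-hybridisation of their probes was not examined.

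Neither mucosa bears villi, and the absorptive genes named here include some that were low at both ends and some that were low in the stomach and high in the colon. Differences from the small bowel are given as levels and were not tested here. Of 37 such genes, 15 were lower in the stomach, 1 was higher and 21 were not called (median -0.68). Si, the sucrase-isomaltase of the brush border, stood at -5.40, -4.47 and -4.91 in the stomach, against -5.64, -5.36 and -6.47 in the colon, with no colon spot well above background, and was not called (adjusted p = 0.403). Its median in the 9 small bowel samples was 3.96. Mttp, which loads lipid onto chylomicrons, stood at -5.56, -5.89 and -7.04 in the stomach, against -5.19, -4.64 and -5.97 in the colon, and its median in the small bowel samples was 3.90. The chylomicron protein Apoa4 was not called (0.26 ± 0.79, adjusted p = 0.823), with a small bowel median of 5.34. Si and Mttp were thus low at both ends, while Apoa4 was measurable at both ends and lay under its small bowel median. Fabp1, which binds fatty acids in the cytosol, stood at -1.08, -1.77 and -1.17 in the stomach, against 5.68, 5.84 and 5.73 in the colon, 135-fold lower (-7.08 ± 0.51, adjusted p = 3.05e-08). S100g, a cytosolic calcium-binding protein, stood at -1.07, -0.87 and -0.92 in the stomach, against 5.81, 5.46 and 5.85 in the colon, 103-fold lower (adjusted p = 1.16e-09). Mep1b was 224-fold lower. These 3 genes were high in the colon as in the small bowel, where their medians were 6.43, 5.10 and 2.32. Fabp2 lay in between, 4.04-fold lower in the stomach (adjusted p = 0.00304).

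Other genes set the colon apart from both the stomach and the small bowel. Sval1, named for its likeness to a seminal vesicle antigen, stood at -2.86, -2.64 and -3.16 in the stomach, against 4.99, 5.30 and 6.06 in the colon, 320-fold lower (-8.32 ± 0.46, adjusted p = 1.81e-09), and reached at most -3.13 in the small bowel samples. Mptx1 reached at most -1.56 there and Thbs4 at most -1.92. The lowest colon sample exceeded the highest other measured sample of the series by 7.63 for Sval1, 8.22 for Mptx1 and 6.66 for Thbs4.

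**Figure D5:**
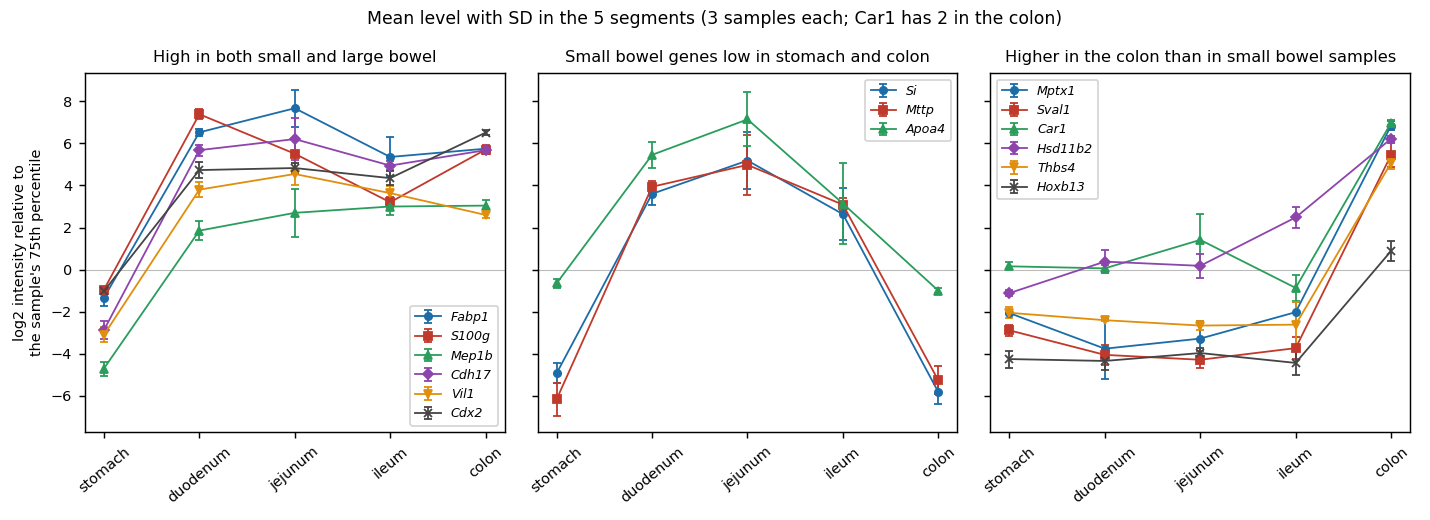
Mean level with SD in the 5 segments, 3 samples each, as log2 intensity relative to the 75th percentile. The left panel shows genes low in the stomach and high in the bowel. The middle panel shows the small bowel genes Si, Mttp and Apoa4, in stomach and colon under their small bowel medians. The right panel shows genes highest in the colon, of which Car1 rests on 2 colon samples.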

How the data were processed

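Per the file headers, the deposited files hold each spot's processed intensity, which the authors obtained by background subtraction and dye normalisation in Agilent Feature Extraction (version 8.5.1.1 on stomach arrays and 10.1.1.1 on colon arrays). Only the channel of the dye labelled for a sample was used. The deposited value table held the same intensities. Non-uniform and outlier spots were dropped, log2 intensities were set relative to the sample's 75th percentile with no pseudocount, spots of a probe were averaged, and a probe was kept if 1 or more segments had it well above background in all their samples. The brightest probe stood for a gene. Of 41012 probes, 11141 were named by accession, 6305 by current and 3967 by older symbol, and 19599 kept the file's name.

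The difference was fitted with limma 3.58.1 (R 4.3.3, statmod 1.5.0), with segment and dye as terms, the slide as random block (correlation 0.361), an intensity trend, 9 residual degrees of freedom, two-sided tests and Benjamini-Hochberg adjustment over 33096 genes. In simulated data, 67, 67 and 66 of 33096 genes were changed by a log2 value of 1, 2 and 4. The fit recovered 4.48%, 46.3% and 89.4% of them, with 5 false calls. Far fewer genes were changed there than were called in the real samples, so these rates do not apply to the real samples. The dye term called no gene, and limma's unadjusted p was under 0.05 for 629. Bounds set the dim group at the lowest signal well above background of each array. For spots saturated in every sample of the brighter group, the bound was the difference of group means without the dye term. The number of arrays limits the precision.

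Named were the 6 markers, the 12 largest non-overlapping called differences each way (bounds in place of fitted values) with a symbol that is not provisional, the 3 largest calls each way in each of 36 lists, and key genes of the lists whatever they showed. Groups, lists and members were chosen with earlier results of these data known. Lists are described by counts and medians, to be read against 21.1% higher, 14.3% lower and a median of 0.26 over all genes. Alternatives changed scaling, background correction, filters, probes, covariates and samples. Promoters came from RefSeq (GRCr8). Some genes counted in the lists are not reported here by name.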

Additional observations from a re-analysis of the deposited data

How the results depend on the processing

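The numbers of genes higher and lower in the stomach, 6980 and 4738, stayed within 1.5 times under most of 24 alternatives. With normexp on the median signals (the colon files gave no mean signals) they were 3947 and 7608, and with the 6 samples fitted alone 11369 and 7858. Requiring all 6 samples to be above background, which removes genes dim in 1 tissue, left 25568 genes and 3875 higher calls. Scaling to the sample median gave 5106 and 6827, and quantile normalisation 5628 and 4737. Leaving out 1 sample gave 4614 to 6900 higher, the lowest without stomach 3, and 3447 to 4499 lower. With scan day as random block the counts were 5883 and 3895, and with colon 1 and colon 2 averaged as 1 sample, an alternative chosen after seeing the data, 7438 and 4700. Samples with the same number did not deviate together (correlations -0.007, 0.086 and 0.073), and a replicate block gave 6684 and 4788.

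Over 4508 pairs of 190 named genes and an alternative, 4334 kept direction and side of the threshold, 136 lost and 26 gained the call, and 12 changed sign. With normexp the sign changed for Car3 (-0.46), Car15 (-0.05), Hoxd10 (-0.27), Hoxc11 (-0.09), Sp5 (-0.40), Defb1 (-0.47), Synpo2 (-0.15), Ms4a2 (-0.02), Fcer1a (-0.55) and Hbb (-0.23), and with the filter on all 6 samples, which took another probe, for Eps8 (-0.38) and Cd7 (-1.59). With the median of a gene's probes the difference became -5.91 for Cdh17, -3.40 for Cldn4, -3.84 for S100g, -3.35 for Zg16, -4.12 for Hoxa11, 6.86 for Atp4a and 2.75 for Sst, with the call kept. With normexp 13 intestinal and hindgut factors and 8 oxidative phosphorylation genes were lower and 1 carbonic anhydrase was higher, and with the median of probes 3 endothelial genes were higher. Of 166 genes called, 120 stayed on the same side under every alternative run for them. The cause of these changes was not tested. Colon spots near background limit the folds of genes higher in the stomach, and saturated spots limit those of the brightest genes.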

Other observations

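Genes of the exocrine pancreas, apart from Clps, were higher in the stomach in 9 of 19, lower in 2 and not called in 8 (median difference 1.17). With normexp 6 were higher and 4 lower (median 0.16). Ptf1a, a factor of pancreatic acinar cells, stood at 2.18, 1.99 and 2.17 in the stomach, against -2.10, -2.43 and -2.04 in the colon, 19.7-fold higher (4.30 ± 0.30, adjusted p = 1.95e-08). The carboxypeptidase Cpb1, well above background in 1 of 3 colon samples, was 22.6-fold and the elastase Cela3b 15.7-fold higher. With normexp the Cpb1 difference was 0.94, against 4.50 without it. The trypsinogen Prss2 was 2.25-fold lower (adjusted p = 0.0126), and not called without stomach 3, at -1.78, -2.02 and -1.93 in the stomach, against -1.04, -0.63 and -0.27 in the colon. Cela1 was 2.10-fold lower, and not called with quantile normalisation or the median of its probes. The list thus held genes in both directions, and whether pancreatic tissue took part was not tested.

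T cell genes were higher in 2 and lower in 2 of 16 (median 0.01), and none of 7 B and plasma cell genes was called (median 0.48). With normexp 5 T cell and 2 B cell genes were lower. Macrophage and MHC class II genes were higher in 4 and lower in 2 of 16 (median 0.49). The endotoxin co-receptor Cd14 lay between -1.20 and -0.95 in the stomach samples, against 3.37, 3.60 and 3.81 in the colon samples, 23.2-fold lower (-4.54 ± 0.35, adjusted p = 7.1e-08). The lysosomal protease Ctss was 16.3-fold lower, while the invariant chain Cd74 was 6.75-fold higher in the stomach (adjusted p = 0.00127). Mast cell genes were higher in 2 of 9 (22.2%) and smooth muscle genes in 3 of 9 (33.3%), with none lower. Red cell genes were higher in 1 of 3 (33.3%) and squamous forestomach genes in 1 of 6 (16.7%), again with none lower. Over all genes 21.1% were higher and 14.3% lower, so the T cell, macrophage, mast cell and squamous counts were near or under those shares. With normexp 3 mast cell genes were lower, both genes called higher in the mast cell list turned (Ms4a2 to -0.02 and Fcer1a to -0.55), as did the 1 red cell gene called (Hbb to -0.23), and the smooth muscle median of 0.16 changed sign. Tp63, the squamous gene called higher, lost its call under 10 of 24 alternatives. The vessel marker Emcn was at least 13.2-fold higher in the stomach (adjusted p = 1.9e-05), with no colon spot well above background, a log2 bound of 3.72, against a difference of 1.21 with normexp.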
